A study of Populus tremula x Populus tremuloides with 22 samples.

Results

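A set of 112 genes stood higher in stems of hybrid aspen that overexpress the Arabidopsis gene LBD11 than in wild type, while their mean in stems that overexpress Arabidopsis LBD4 lay close to wild type. The stems came from hybrid aspen (Populus tremula x Populus tremuloides, a hybrid of a European and an American species) raised in a greenhouse (conditions labelled LD), and internodes were taken at 3 weeks of age. LBD11-OE trees carry LBD11 and were read as 9 libraries, 3 each from the lines LBD11-OE-14, LBD11-OE-2 and LBD11-OE-1. LBD4-OE trees carry LBD4 and were read as 8 libraries, 3 from LBD4-OE-11, 2 from LBD4-OE-14 and 3 from LBD4-OE-17. Wild type (WT) trees carry neither and were read as 5 libraries. Both transgenes are described as xylem-specific, and the sources used here do not give the promoter. The deposited files count gene models of the tree alone, so the level of each transgene was not analysed here and the strength of overexpression in a line is not known. For LBD11-OE-14 the title gives the line number 14 and the genotype label gives 3, and the title was followed. Nothing in the labels ties the replicates of a line to separate trees, and the p-values therefore measure only how far these libraries spread, which may be technical.

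LBD genes encode LATERAL ORGAN BOUNDARIES DOMAIN proteins, a family of transcription factors found in plants and named for a gene expressed at the base of lateral organs. In Arabidopsis, members of the family act in organ boundaries, in root branching and in the vascular cambium, the layer of dividing cells that makes xylem to the inside and phloem to the outside. Arabidopsis LBD4 is known from the border between phloem and procambium, and LBD11 from the cambium during secondary growth. Xylem is the wood of a stem, and its cells lay down a secondary wall of cellulose, xylan and lignin. The counted genes carry Potri identifiers, the scheme of black cottonwood gene models, and no source used here gives them names, so the members are described here by identifier, level and position and no function is given for them.

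Members were chosen by measured values. The level of a gene was its CPM, its read count scaled by the total of its library, and differences between groups were taken on log2(CPM + 0.5). A gene belonged to the set if its WT mean was at least 1 CPM, if every LBD11-OE library lay above every WT library, if the LBD11-OE mean exceeded the WT mean by at least 0.8 log2 units, and if the LBD4-OE mean lay within 0.25 log2 units of the WT mean. Of 34699 counted genes, 22754 reached 1 CPM in WT, 1016 of these (4.47%) had every LBD11-OE library above every WT library, and 355 of those also rose by at least 0.8. The limit on LBD4-OE left out 233 genes above 0.25 and 10 below -0.25, which gave the 112 members, 0.492% of the genes at 1 CPM or more. All 112 had counts in each of the 22 libraries and passed the filter on low counts.

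**Figure D1:**
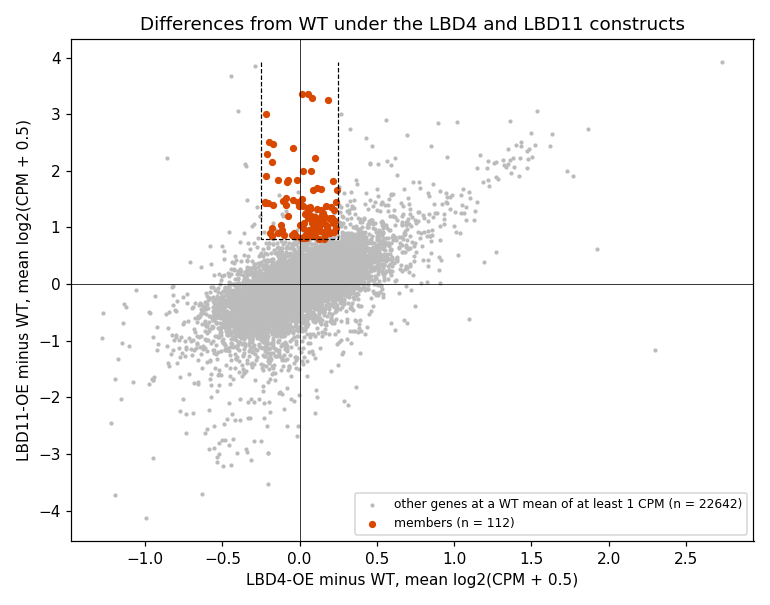
Each point is a gene with a WT mean of at least 1 CPM, placed by its mean LBD4-OE minus WT difference (horizontal axis) and its mean LBD11-OE minus WT difference (vertical axis), both on log2(CPM + 0.5). The dashed lines are the limits of 0.8 and of -0.25 and 0.25 that define the 112 members (orange), and grey points inside them are genes in which the LBD11-OE and WT libraries overlapped.

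The libraries held 28436155 to 38171334 counts in LBD11-OE, 23437445 to 37437349 in LBD4-OE and 27264836 to 41969957 in WT. Over all genes at 1 CPM or more in WT the median difference from WT was -0.05 log2 units in LBD11-OE and -0.02 in LBD4-OE. WT replicate 3, LBD4-OE-11 and LBD11-OE-2 all lay at least 1 log2 unit below the other 15 libraries in 9 of 22697 genes. None of these 9 was a member, and in 0 genes did the 7 libraries lie as far above the other 15. These 7 libraries are called the smaller set here, and they include a whole line of each construct. Other sets of 7 libraries were not tested. Lines LBD11-OE-2 and LBD4-OE-11 lie wholly in the smaller set, so a difference of either line cannot be told apart from one of the set. The libraries of both sets had a part in choosing the members, so the differences within each set were largely fixed by the rule. They are given as description, and the shares of all genes were not computed for them. Within the 15 other libraries the median LBD11-OE minus WT difference of the members was 1.19 log2 units, and 108 of the 112 were at 0.8 or more. Within the smaller set, where LBD11-OE-2 stands against WT replicate 3 alone, the median was 1.24 and 92 of the members were at 0.8 or more. The LBD4-OE minus WT difference lay within 0.25 in 103 of the 112 in the larger set, where it ran from -0.40 to 0.41. In the smaller set, LBD4-OE-11 against WT replicate 3 alone, it lay within 0.25 in 49, ran from -0.88 to 0.91, and was at 0.8 or more in 3 members, Potri.007G146900, Potri.007G092500 and Potri.T012400.

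The members ranged widely in level. Their mean was 2.73 to 1779 CPM in LBD11-OE (median over members 33.2), 0.930 to 983 CPM in LBD4-OE (median 11.7) and 1.02 to 952 CPM in WT (median 12.1). In WT 20 members lay under 2 CPM, 31 at 2 to 10 CPM, 50 at 10 to 100 CPM and 11 at 100 CPM or more. The LBD11-OE minus WT difference ran from 0.80 to 3.37 log2 units with a median of 1.16, and the ratio of mean CPM from 1.75 to 15.2 with a median of 2.32. Most members rose moderately and a short tail went far beyond: 74 differed by at least 1 log2 unit, 11 by at least 2 and 4 by at least 3. The LBD4-OE minus WT difference ran from -0.23 to 0.24 with a median of 0.07, and 80 of the 112 lay above WT. The members together took 0.870% to 1.39% of all counts in LBD11-OE libraries (median 0.971%), 0.435% to 0.523% in LBD4-OE libraries (median 0.512%) and 0.431% to 0.489% in WT libraries (median 0.484%). In a bulk sample more RNA per cell and more cells of a kind that uses these genes cannot be told apart.

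**Figure D2:**
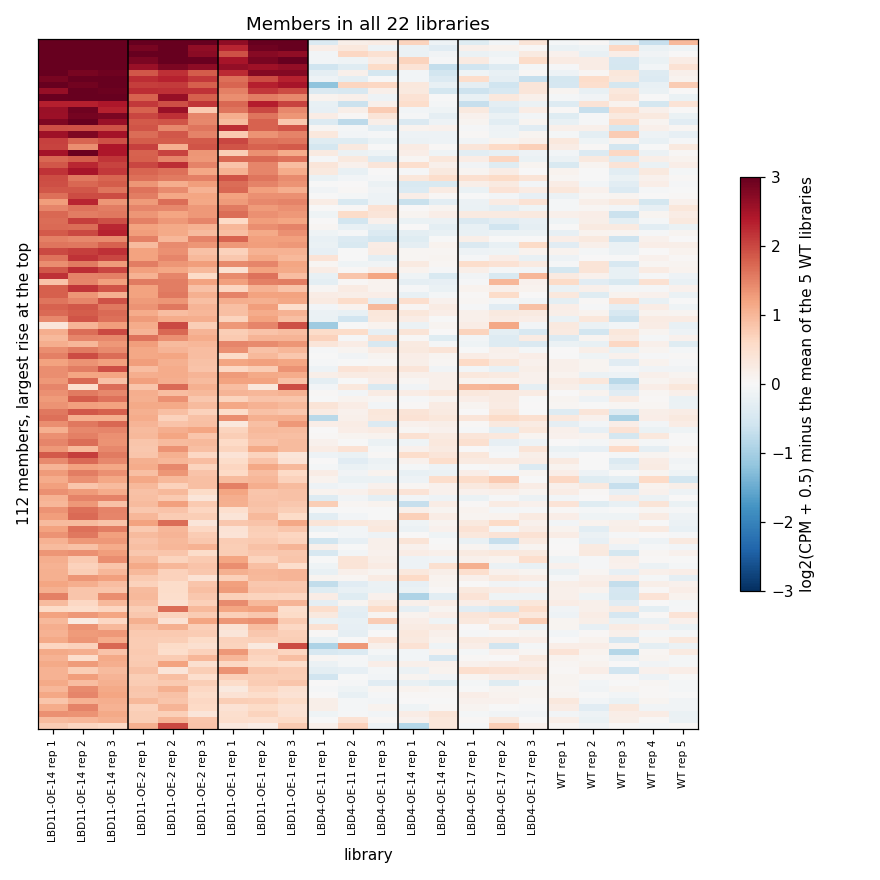
Each row is 1 of the 112 members, with the largest rise at the top, and each column is 1 of the 22 libraries, with black lines between lines of trees. Colour gives log2(CPM + 0.5) minus the mean of the 5 WT libraries, capped at -3 and 3. The 9 LBD11-OE columns are red throughout, those of LBD11-OE-14 the deepest, and the LBD4-OE and WT columns are close to white.

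In the fits across all genes the members did what the rule asked of them, and nothing is read from these counts. At an adjusted p under 0.05 in edgeR's quasi-likelihood test, 112 of 112 were higher in LBD11-OE than in WT, where 16.1% of all genes tested were. All 112 were also higher in LBD11-OE than in LBD4-OE, against 8.08% of all genes tested. For LBD4-OE against WT, edgeR called 0 of 112 at that threshold, against 4.28% of all genes, and 2 of 112, Potri.001G356200 and Potri.012G126400, at an unadjusted p under 0.05, against 21.8%. Genes behind counts of 5 or fewer are named after their values were seen. The comparisons with WT share the same 5 WT libraries. Every LBD11-OE library lay above every LBD4-OE library in 91 members, against 1.47% of the genes at 1 CPM or more. All 8 LBD4-OE libraries lay inside the range of the WT libraries in 12 members, against 11.4% of the genes at 1 CPM or more.

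The 10 members with the largest rise were clearly counted in LBD11-OE, and most were near the floor of detection in LBD4-OE and WT. Potri.007G034700 (chromosome 7, 2715182 to 2715773, minus strand) had the largest difference. Its lowest, median and highest values were 8.45, 12.6 and 24.4 CPM in LBD11-OE and 0.555, 0.963 and 1.74 CPM in LBD4-OE, and the 5 WT libraries had 0.855, 0.953, 0.660, 0.379 and 2.27 CPM. No LBD11-OE library overlapped the others, and the LBD4-OE libraries lay inside the low WT range. Its means were 14.6 ± 4.63 CPM in LBD11-OE, 1.01 ± 0.406 CPM in LBD4-OE and 1.02 ± 0.729 CPM in WT (SD, n = 9, 8 and 5), a difference from WT of 3.37 log2 units in LBD11-OE and of 0.06 in LBD4-OE.

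Potri.005G089900 (chromosome 5, 6255336 to 6255707, minus strand), a short gene model, had 8.48, 15.6 and 41.7 CPM as lowest, median and highest in LBD11-OE, 0.962, 1.43 and 1.79 CPM in LBD4-OE, and 1.11, 1.19, 2.35, 1.11 and 1.19 CPM in the 5 WT libraries. With a ratio of means of 15.2 it had the largest fold of all members, and WT replicate 3 stood above the other WT libraries. Potri.001G066000 (chromosome 1, 4944813 to 4949869, minus strand) had 31.2, 72.6 and 192 CPM in LBD11-OE, 6.83, 7.41 and 12.6 CPM in LBD4-OE, and 8.78, 6.70, 9.21, 7.30 and 8.02 CPM in WT. Its lowest LBD11-OE library was far above its highest WT library, and its LBD11-OE libraries themselves spread widely, with all 3 of LBD11-OE-14 at the top. Potri.002G201600 (chromosome 2, 16503500 to 16504878, minus strand) had 34.7, 55.9 and 104 CPM in LBD11-OE, 5.38, 6.36 and 9.65 CPM in LBD4-OE, and 7.04, 7.01, 4.03, 5.05 and 6.94 CPM in WT. The differences from WT of these 3 members in LBD11-OE were 3.36, 3.29 and 3.26 log2 units, and in LBD4-OE 0.02, 0.08 and 0.18.

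The other 6 of the 10 had differences from WT of 2.23 to 3.00 log2 units in LBD11-OE. Potri.006G151600 averaged 15.9 ± 6.29 CPM in LBD11-OE, 1.25 ± 0.645 CPM in LBD4-OE and 1.48 ± 0.474 CPM in WT (SD, n = 9, 8 and 5). Potri.019G117500 averaged 9.20 ± 3.17, 0.930 ± 0.243 and 1.14 ± 0.309 CPM in the same order of groups. Potri.001G334800 averaged 10.4 ± 5.32 CPM in LBD11-OE, 1.14 ± 0.435 CPM in LBD4-OE and 1.38 ± 0.591 CPM in WT. These 3, like Potri.001G082500 with 11.1 ± 4.41 CPM in LBD11-OE, 1.66 ± 0.857 CPM in LBD4-OE and 1.70 ± 0.938 CPM in WT, were barely counted outside LBD11-OE stems. Potri.017G064301 averaged 8.58 ± 5.49 CPM in LBD11-OE, 1.30 ± 0.269 CPM in LBD4-OE and 1.18 ± 0.293 CPM in WT. Potri.013G009800 was of another kind, well counted in every group, at 155 ± 53.1 CPM in LBD11-OE, 26.3 ± 7.99 CPM in LBD4-OE and 29.7 ± 4.73 CPM in WT. Its LBD4-OE libraries ran from 19.1 to 37.8 CPM and spanned a wider range than the WT libraries at 25.1 to 36.8 CPM.

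**Figure D3:**
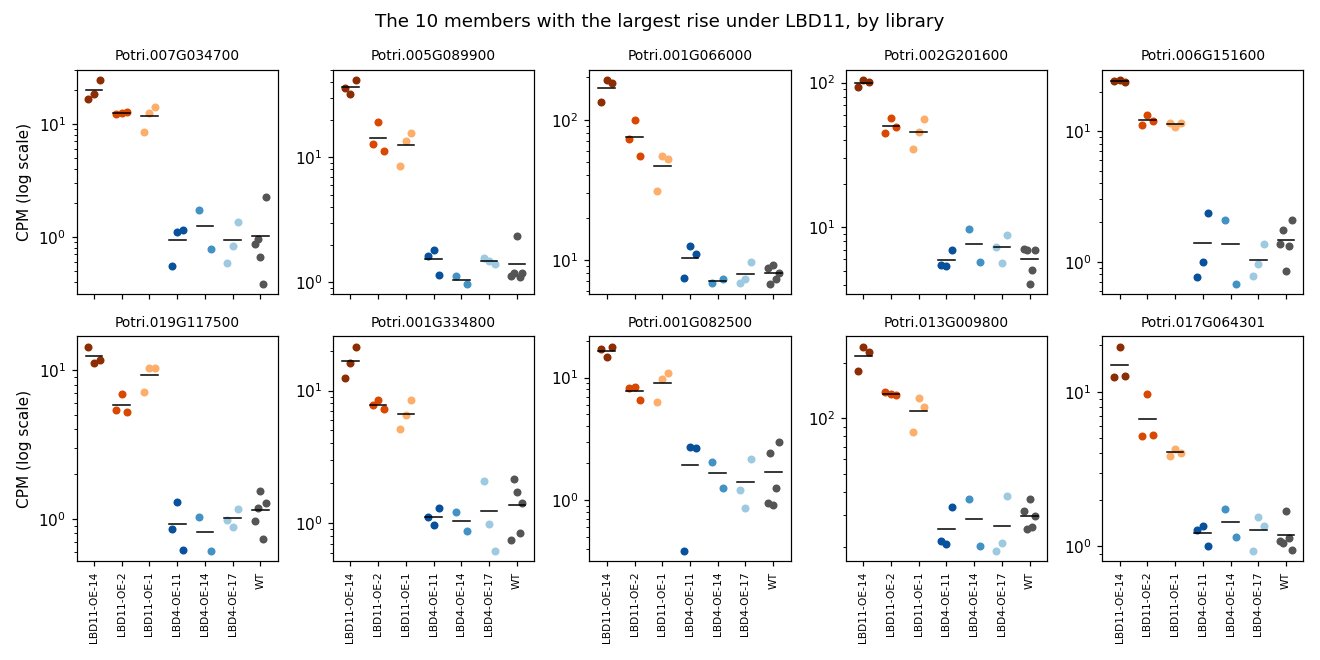
Each panel is 1 of the 10 members with the largest LBD11-OE minus WT difference, with CPM on a log axis and the lines along the horizontal axis. Each point is a library and each bar the mean of a line. The LBD11-OE libraries lie above all WT libraries in each panel, as the rule asks, and LBD11-OE-14 has the highest mean of the 3 LBD11-OE lines in each. The 10 were ranked by a mean that includes LBD11-OE-14.

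The 6 members with the highest LBD11-OE mean had rises of 0.85 to 1.66 log2 units. Potri.005G162800 (chromosome 5, 16037061 to 16041834, minus strand) had 1217, 1647 and 2351 CPM as lowest, median and highest in LBD11-OE, 794, 968 and 1188 CPM in LBD4-OE, and 901, 975, 1054, 919 and 914 CPM in the 5 WT libraries. The lowest LBD11-OE library, from LBD11-OE-1, stood close above the highest LBD4-OE library, from LBD4-OE-14. The difference from WT was 0.88 log2 units in LBD11-OE and 0.04 in LBD4-OE. Potri.005G018700 (chromosome 5, 1204155 to 1208914, plus strand) combined a high level with the largest rise of the 6, at 448, 683 and 1200.4 CPM in LBD11-OE, 187, 225 and 265 CPM in LBD4-OE, and 232, 213, 175, 263 and 208 CPM in WT. Its lowest LBD11-OE library was above every library of the other groups by a wide margin, and the difference from WT was 1.66 log2 units.

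Potri.006G165700 averaged 682 ± 184 CPM in LBD11-OE, 311 ± 44.7 CPM in LBD4-OE and 281 ± 46.6 CPM in WT (SD, n = 9, 8 and 5). Potri.002G003100 averaged 393 ± 118 CPM in LBD11-OE, 194 ± 10.4 CPM in LBD4-OE and 191 ± 6.78 CPM in WT. Potri.004G138200 ran from 377 to 739.7 CPM in LBD11-OE, 238 to 416 CPM in LBD4-OE and 195 to 337 CPM in WT. The highest LBD4-OE library of that gene, from LBD4-OE-17, exceeded its lowest LBD11-OE library, from LBD11-OE-2. Potri.008G020900 ran from 331 to 545 CPM in LBD11-OE, 174 to 277 CPM in LBD4-OE and 161 to 259 CPM in WT. In both of these genes WT replicate 3 was the lowest WT library by a clear step. Per kilobase of the gene model's span, introns included, the LBD11-OE mean of these 6 was 373 CPM for Potri.005G162800, 267 for Potri.006G165700, 201 for Potri.008G020900, 173 for Potri.004G138200, 153 for Potri.005G018700 and 56.1 for Potri.002G003100.

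At each limit of the rule members and non-members lay close together. Potri.007G015500 and Potri.016G115200 entered with a rise of 0.80 log2 units each, while Potri.017G116900 and Potri.014G019500 stayed out with 0.79 and 0.78. Potri.001G356200 and Potri.006G210600 entered with an LBD4-OE minus WT difference of 0.24 and 0.24, while Potri.017G124200 and Potri.008G120000 stayed out with 0.26 each. On the lower side Potri.016G096300 and Potri.003G090100 entered with -0.23 and -0.22, and Potri.019G116866 and Potri.007G038500 stayed out with -0.26 and -0.27. Between the lowest LBD11-OE and the highest WT library, Potri.005G078700 and Potri.007G086000 differed by 0.00601 and 0.0214 log2 units, while Potri.003G129100 and Potri.007G044500 stayed out with -0.0371 and -0.05. At the floor on WT level Potri.007G034700 and Potri.T012400 entered with 1.02 and 1.04 CPM, and Potri.017G100200 and Potri.005G252250 stayed out with 0.974 and 0.965 CPM. Leaving out any 1 library gave 104 to 133 genes, the highest without WT replicate 3, and 68 of the 112 met the rule with each library left out in turn.

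The rule set no LBD11-OE line against another, and differences among the 3 lines were tested. Each line still had a part in choosing the members, which favours genes in which a line stands high. Among the 96 genes chosen without LBD11-OE-14, edgeR called 28 higher in that line than in LBD11-OE-1 and 24 higher than in LBD11-OE-2. The counts over all 112 members follow. LBD11-OE-14 stood out: its mean was the highest of the 3 in 97 of 112 members (86.6%), against 21.2% of the genes at 1 CPM or more, while LBD11-OE-2 was the highest in 5, against 44.4%, and LBD11-OE-1 in 10, against 34.4%. In a joint edgeR quasi-likelihood test of the 3 lines, 43 of 112 members (38.4%) passed an adjusted p of 0.05, against 1.36% of all 26271 genes tested. In LBD11-OE-14 against LBD11-OE-1, 40 members (35.7%) were higher and 0 lower, against 1.36% and 0.335% of all genes. In LBD11-OE-14 against LBD11-OE-2, 33 members (29.5%) were higher and 0 lower, against 0.483% and 0.179%. At an unadjusted p under 0.05 in edgeR, 67 members were higher and 0 lower in LBD11-OE-14 than in LBD11-OE-1, against 7.43% and 4.84% of all genes, and 68 were higher and 1 (Potri.007G015500) lower than in LBD11-OE-2, against 4.76% and 4.13%. DESeq2 called 50 and 46 members in these comparisons and limma voom 47 and 39. The shares of all genes that these tools called are not given here, so these counts have no background beside them. Of the 44 members called in either comparison, 29 were called in both, 11 against LBD11-OE-1 alone and 4 against LBD11-OE-2 alone, which were Potri.019G117500, Potri.016G056100, Potri.016G096300 and Potri.016G142900.

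Across the set the step between lines was a sizeable part of the rise. Among the members called, the log2 fold change ran from 0.50 to 1.92 with a median of 0.93 against LBD11-OE-1, and from 0.51 to 1.42 with a median of 0.81 against LBD11-OE-2. Over all 112 members the median was 0.51 and 0.50, where the median over all genes tested was -0.004 and 0.003. The fold change was above 0 in 99 members against LBD11-OE-1 and in 104 against LBD11-OE-2. All 3 LBD11-OE-14 libraries lay above the other 6 LBD11-OE libraries in 55 members (49.1%), against 2.53% of the genes at 1 CPM or more. The line means ran in the order LBD11-OE-14, LBD11-OE-2, LBD11-OE-1 in 64 members (57.1%), against 14.1%. Calls were spread over large and small rises, as 21 of the 56 members above the median rise and 19 of the 56 below it were called against LBD11-OE-1.

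Read per library, the median over the members of the difference from the WT mean was 1.38, 1.53 and 1.44 log2 units in LBD11-OE-14, 1.10, 1.13 and 0.92 in LBD11-OE-2, and 1.002, 1.04 and 0.99 in LBD11-OE-1. The 3 libraries of LBD11-OE-14 did not overlap the other 6, and the libraries of LBD11-OE-2 and LBD11-OE-1 overlapped. The same medians ran from -0.02 to 0.10 in the 8 LBD4-OE libraries and from -0.07 to 0.06 in the 5 WT libraries.

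**Figure D4:**
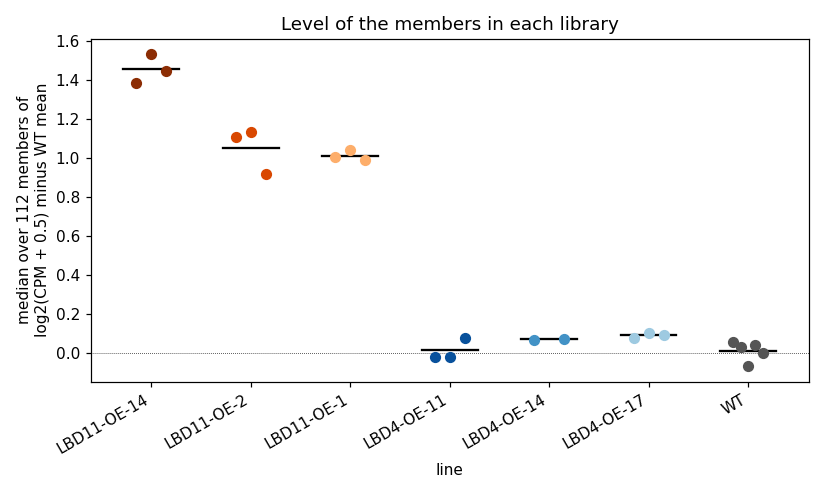
Each point is a library, placed by the median over the 112 members of its log2(CPM + 0.5) minus the WT mean, with lines along the horizontal axis. Each bar is the mean of the points of a line. The LBD11-OE-14 libraries lie between 1.38 and 1.53, the other LBD11-OE libraries between 0.92 and 1.13, and the LBD4-OE and WT libraries around 0.

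The 6 members with the smallest joint p were well counted genes. Potri.008G161600 (chromosome 8, 11117760 to 11119846, minus strand) had 136, 160.4 and 111 CPM in LBD11-OE-14, 66.9, 79.1 and 57.5 CPM in LBD11-OE-2 and 49.8, 59.6 and 48.7 CPM in LBD11-OE-1, beside 32.7 to 54.7 CPM in LBD4-OE and 35.3, 38.0, 36.1, 39.9 and 38.5 CPM in the 5 WT libraries. The LBD11-OE-14 libraries were well above those of the other lines, and LBD11-OE-1 overlapped LBD4-OE in this gene. The log2 fold change of LBD11-OE-14 was 1.41 ± 0.13 (SE) against LBD11-OE-1 and 1.08 ± 0.13 against LBD11-OE-2, with an adjusted p in edgeR of 5.48e-06 and 0.000111. Potri.002G003100 (chromosome 2, 194226 to 201221, plus strand) had 488, 604 and 534 CPM in LBD11-OE-14, 333, 344 and 299 CPM in LBD11-OE-2 and 272, 341 and 319 CPM in LBD11-OE-1. LBD11-OE-2 and LBD11-OE-1 overlapped there and LBD11-OE-14 lay above both, by 0.84 ± 0.09 against LBD11-OE-1 and 0.81 ± 0.09 against LBD11-OE-2, at an adjusted p in edgeR of 1.75e-05 and 8.24e-05.

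Potri.003G154500 (chromosome 3, 16614124 to 16618965, plus strand) had 90.1, 96.7 and 104 CPM in LBD11-OE-14, 52.3, 58.8 and 41.5 CPM in LBD11-OE-2 and 36.3, 46.6 and 47.0 CPM in LBD11-OE-1. Potri.006G117500 (chromosome 6, 9200003 to 9202290, minus strand) had 57.7, 63.8 and 79.7 CPM in LBD11-OE-14, 37.9, 35.0 and 30.6 CPM in LBD11-OE-2 and 29.8, 35.1 and 41.5 CPM in LBD11-OE-1. In both genes the lowest LBD11-OE-14 library exceeded the highest library of the other lines. For Potri.003G154500 LBD11-OE-14 was higher by 1.20 ± 0.13 (SE, log2) than LBD11-OE-1 and by 1.002 ± 0.13 than LBD11-OE-2, at an adjusted p in edgeR of 1.75e-05 and 0.000254. For Potri.006G117500 it was higher by 0.96 ± 0.12 and 1.03 ± 0.12, at 9.55e-05 and 0.000111. Potri.010G242600 (chromosome 10, 21947751 to 21951241, minus strand) had 232, 313 and 258 CPM in LBD11-OE-14, 182, 185 and 153 CPM in LBD11-OE-2 and 120.4, 158 and 141 CPM in LBD11-OE-1. Potri.T046100, on an unplaced scaffold, had 56.6, 72.3 and 60.7 CPM in LBD11-OE-14, 37.9, 47.2 and 30.2 CPM in LBD11-OE-2 and 25.6, 33.5 and 29.5 CPM in LBD11-OE-1. These too kept LBD11-OE-14 apart from the rest, with fold changes of 0.98 ± 0.11 and 0.70 ± 0.11 for Potri.010G242600 and of 1.14 ± 0.13 and 0.79 ± 0.13 for Potri.T046100, against LBD11-OE-1 and LBD11-OE-2 in turn. All 6 stayed past the threshold in both comparisons with any 1 of the 9 LBD11-OE libraries left out. Their choice by the smallest joint p in the same libraries made that likely.

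Among the 10 members with the largest rise, 5 were higher in LBD11-OE-14 than in LBD11-OE-1, against 35.7% of the members and 1.36% of all genes. The 10 were ranked by the LBD11-OE mean, which includes LBD11-OE-14, so a high LBD11-OE-14 helps a gene into the list. Potri.017G064301 had the largest step, with 12.5, 19.7 and 12.8 CPM in LBD11-OE-14, 5.16, 9.67 and 5.24 CPM in LBD11-OE-2 and 3.87, 4.28 and 4.05 CPM in LBD11-OE-1, a log2 fold change of 1.92 ± 0.25 (SE) against LBD11-OE-1 and an adjusted p in edgeR of 9.12e-05. The 3 lines did not overlap each other, and the WT range was 0.941 to 1.69 CPM. Potri.001G066000 had 133, 192 and 183 CPM in LBD11-OE-14, 72.6, 99.2 and 54.7 CPM in LBD11-OE-2 and 31.2, 55.3 and 52.6 CPM in LBD11-OE-1, a fold change of 1.91 ± 0.23, adjusted p 0.000129 in edgeR. Potri.005G089900 had 35.9, 32.1 and 41.7 CPM in LBD11-OE-14, 12.7, 19.2 and 11.2 CPM in LBD11-OE-2 and 8.48, 13.5 and 15.6 CPM in LBD11-OE-1, a fold change of 1.59 ± 0.22, adjusted p 0.00024 in edgeR, and the same gene was higher by 1.42 ± 0.22 than in LBD11-OE-2, adjusted p 0.00213. Potri.002G201600 was called against LBD11-OE-1 as well (1.17 ± 0.21), and these 4 kept that call with any 1 LBD11-OE library left out. Potri.001G334800, with 1.36 ± 0.32 and an adjusted p of 0.0285 in edgeR, lost it without any 1 of LBD11-OE-1 replicates 1, 2 and 3 or of LBD11-OE-14 replicates 2 and 3, with an adjusted p of up to 0.174, and with the replicate number as a block (adjusted p 0.062). Potri.019G117500 was not called against LBD11-OE-1 (0.46 ± 0.22) but was against LBD11-OE-2 (1.17 ± 0.23, adjusted p 0.0123 in edgeR), a call that ended without LBD11-OE-2 replicate 1, LBD11-OE-2 replicate 3 or LBD11-OE-14 replicate 1 (adjusted p up to 0.105). The largest rise of all, Potri.007G034700, had 0.81 ± 0.35 against LBD11-OE-1 at an adjusted p of 0.347 in edgeR.

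**Figure D5:**
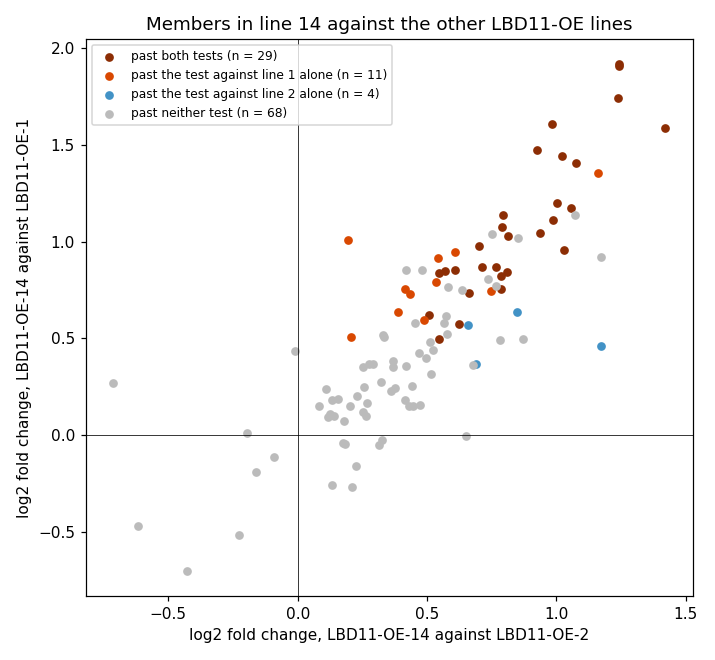
Each point is a member, placed by its edgeR log2 fold change of LBD11-OE-14 against LBD11-OE-2 (horizontal axis) and of LBD11-OE-14 against LBD11-OE-1 (vertical axis). Colours mark the 29 members past the test in both comparisons, the 11 past it against LBD11-OE-1 alone, the 4 past it against LBD11-OE-2 alone and the 68 past neither. The axes share LBD11-OE-14, and every coloured point lies above 0 on both.

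The calls rested unevenly on single libraries. Leaving out 1 LBD11-OE library at a time gave 29 to 40 calls against LBD11-OE-1, and 29 of the 40 members held with each left out. Against LBD11-OE-2 the count fell to 9 without LBD11-OE-2 replicate 3, 13 without LBD11-OE-14 replicate 2, 17 without LBD11-OE-2 replicate 1 and 21 without LBD11-OE-14 replicate 3, and 9 of the 33 members held with each left out. The joint test gave 26 members without LBD11-OE-14 replicate 2 and 33 to 40 without any other. Among the 15 libraries of the larger set 47 members were higher in LBD11-OE-14 than in LBD11-OE-1, 38 of them among the 40. With LBD4-OE-11 replicate 1, the shallowest library, and WT replicate 3 both left out, the counts were 54 for the joint test, 52 against LBD11-OE-1 and 45 against LBD11-OE-2, a setting chosen after the data were seen. For the settings of this paragraph the shares of all genes called are not given here.

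A line that stands high lifts the LBD11-OE mean and so helps a gene past the rule, whichever line that is. The rule was therefore also applied without each line, and the line left out was read in the genes so chosen. The same WT libraries served for the choice and for the reading, and the choice favours genes in which they lie low. Counts of the line left out against WT are thus in part fixed by the choice, and shares of all genes lack that choice. Without LBD11-OE-14 the rule gave 96 genes, 89 of them members. In these genes LBD11-OE-14 exceeded WT by a median of 1.53 log2 units, its 3 libraries all lay above every WT library in 90 of the 96, against 10.4% of the genes at 1 CPM or more, and its mean was at 0.8 or more in 87, against 2.72%. LBD11-OE-14 was also the highest of the 3 lines in 74 of the 96, although it had no part in choosing them, against 21.2%. Of the 96 genes 28 were higher in LBD11-OE-14 than in LBD11-OE-1 and 24 higher than in LBD11-OE-2 at the same threshold in edgeR.

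Left out in its turn, LBD11-OE-2 had a median of 1.004 log2 units over the 130 genes chosen without it, with all its libraries above every WT library in 117, against 9.47% of the genes at 1 CPM or more, and its mean at 0.8 or more in 91, against 1.88%. Its lowest value among them was -2.92. LBD11-OE-1 had a median of 0.89 over the 145 genes chosen without it, with all its libraries above WT in 123, against 10.3%, and its mean at 0.8 or more in 83, against 2.08%. LBD11-OE-2 was the highest line in 3 of its 130 genes, against 44.4% of the genes at 1 CPM or more. LBD11-OE-1 was the highest in 7 of its 145, against 34.4%. Choosing genes by a rise in the other lines pushes the line left out below them, so these small counts are in part fixed by the choice.

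Between LBD11-OE-2 and LBD11-OE-1 no member passed the test. edgeR called 0 of 112 at an adjusted p under 0.05 in either direction, where it called 0% of all genes higher in LBD11-OE-2 and 0.00761% lower, and DESeq2 and limma voom called 0 as well. At an unadjusted p under 0.05, 17 members were higher in LBD11-OE-2 and 4 lower, against 4.04% and 4.11% of all genes. The 4 lower ones were Potri.019G117500, Potri.014G178100, Potri.016G056100 and Potri.001G351000. The median over the members was 0.04 log2 units, and 61 of the 112 lay above 0. LBD11-OE-2 had the highest line mean in Potri.019G131800, Potri.006G210600, Potri.011G058800, Potri.010G112600 and Potri.007G015500. A minority of members thus departed from the common order. Potri.004G138200 had 602, 490.3 and 562 CPM in LBD11-OE-14, 533, 377 and 485 CPM in LBD11-OE-2 and 739.7, 520.3 and 494 CPM in LBD11-OE-1, and the 3 lines overlapped. Potri.008G020900 had 477, 406 and 404 CPM in LBD11-OE-14, 439.8, 331 and 424 CPM in LBD11-OE-2 and 545, 406 and 404 CPM in LBD11-OE-1, again with overlap. In Potri.007G015500 LBD11-OE-2 was the highest line, with 4.31, 3.94 and 3.81 CPM in LBD11-OE-14, 5.53, 10.7 and 4.68 CPM in LBD11-OE-2 and 3.07, 2.83 and 4.42 CPM in LBD11-OE-1, and all 3 LBD11-OE-2 libraries lay above the other 6, replicate 2 furthest. None of these 3 passed the joint test, with an adjusted p in edgeR of 0.576, 0.737 and 0.274.

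Of the genes that rose as far under LBD11 but were left out because LBD4-OE also differed from WT, 243 in all, 15 (6.17%) passed the joint test among LBD11-OE lines, 13 (5.35%) were higher in LBD11-OE-14 than in LBD11-OE-1 and 6 (2.47%) higher than in LBD11-OE-2. LBD11-OE-14 had the highest line mean in 127 (52.3%). The shares were 1.36%, 1.36% and 0.483% of all genes tested and 21.2% of the genes at 1 CPM or more. The 243 genes thus also stood above all genes in each count, and LBD11-OE-14 had a part in choosing them too. The 233 genes above the limit on LBD4-OE and the 10 below it differed in these counts. Of the 233, 9 (3.86%) passed the joint test, 8 (3.43%) were higher than in LBD11-OE-1 and 117 (50.2%) had LBD11-OE-14 as the highest line. Of the 10, 6 passed the joint test and all 10 had LBD11-OE-14 as the highest line, and Potri.004G065000, Potri.007G038500, Potri.011G122100, Potri.014G014500 and Potri.014G126100 were higher in LBD11-OE-14 than in LBD11-OE-1. The shares in the members were 38.4%, 35.7%, 29.5% and 86.6%, and the difference between these shares was not tested.

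Some listed wood genes were also higher in LBD11-OE-14. The lists were made by identifier from general knowledge of the poplar literature, and which genes belong to each could not be checked. None of the 112 members was on a list. The 5 listed secondary wall cellulose synthases, the enzymes that make the cellulose of wood fibres, summed to 6312 to 6776 CPM in LBD11-OE-14, 4593 to 5349 CPM in LBD11-OE-2 and 4587 to 4777 CPM in LBD11-OE-1. The sums in LBD11-OE-14 lay above all others, beside 4021 to 5338 CPM in LBD4-OE and 3668 to 4868 CPM in WT. At the threshold used for the members 2 of the 5 were higher in LBD11-OE-14 than in LBD11-OE-1 and 0 lower, against 1.36% and 0.335% of all genes tested, with a list median of 0.56 on the log2 scale. The 22 listed enzymes of lignin monomer synthesis summed to 20709 to 23290 CPM in LBD11-OE-14, 19477 to 20449 CPM in LBD11-OE-2 and 16668 to 19950 CPM in LBD11-OE-1. Their sums were 14861 to 19511 CPM in LBD4-OE and 16214 to 20477 CPM in WT, so LBD11-OE-2 and LBD11-OE-1 lay inside the WT range. In LBD11-OE-14 against LBD11-OE-1, 5 were higher and 0 lower, against the same 1.36% and 0.335% of all genes, with a list median of 0.17. The 6 cambium genes found of 7 listed gave 0 calls between these lines and a median of -0.20, with sums of 800 to 1014 CPM in LBD11-OE-14, 851 to 1001 CPM in LBD11-OE-2 and 973 to 1270 CPM in LBD11-OE-1. Their sums were 796 to 1053 CPM in LBD4-OE and 580 to 927 CPM in WT. Whether the share of xylem in the samples has a part in the line differences of the members was not tested.

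Against WT, 3 of the 5 cellulose synthases were higher in LBD11-OE and 0 lower (list median 0.35), 9 of the 22 lignin enzymes higher and 0 lower (median 0.14), and 3 of the 6 cambium genes higher and 1 lower (median 0.27), where 16.1% of all genes were higher and 16.3% lower and the median of all genes was 0.002. In LBD4-OE against WT edgeR called 0 genes of these lists, where it called only 4.28% of all genes tested. The clock list, 3 genes that mark the time of day, had 1 gene higher and 2 lower in LBD11-OE than in WT, with sums of 184 to 243 CPM in LBD11-OE, 224 to 344 CPM in LBD4-OE and 264 to 329 CPM in WT. The time of day at which stems were cut is not in the labels, and its part in the members' rise was not tested.

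No member passed the edgeR test among the 3 LBD4-OE lines. The joint edgeR test called 0 of 112 at an adjusted p under 0.05, against 0.194% of all genes, and limma voom called 0. At an unadjusted p under 0.05 edgeR had 17 members (15.2%), against 9.95%. Between LBD4-OE-17 and LBD4-OE-11, 16 members were higher and 2 (Potri.005G007600 and Potri.019G131800) lower at an unadjusted p under 0.05, against 5.09% and 5.53% of all genes. LBD4-OE-11 lies wholly in the smaller set, so its differences from the other LBD4-OE lines cannot be told apart from those of the set. The median difference from WT over the members was -0.004 log2 units in LBD4-OE-11, 0.08 in LBD4-OE-14 and 0.11 in LBD4-OE-17. In 49 members all 3 lines lay within 0.25 of WT, 3 members had a line more than 0.5 above WT and 1 a line more than 0.5 below it. Potri.T012400 stood at 0.60 in LBD4-OE-11, Potri.005G078700 at 0.58 and Potri.010G107100 at 0.56 in LBD4-OE-17, and Potri.001G096000 at -0.62 in LBD4-OE-14. The rule bounds the mean of the 8 libraries and not each line. With the rule applied without LBD4-OE-11, that line lay within 0.25 of WT in 74 of the 101 genes so chosen, against 78.1% of the genes at 1 CPM or more, with a median of 0.03 log2 units. Left out in the same way, LBD4-OE-14 lay within 0.25 in 76 of 109 genes (median 0.10), against 71.8%, and LBD4-OE-17 in 73 of 132 (median 0.15), against 76%. These shares were near or below those of all genes. All libraries of the line left out lay above every WT library in 5 of the 101 genes for LBD4-OE-11, against 5.52%, in 13 of 109 for LBD4-OE-14, against 8.42%, and in 24 of 132 for LBD4-OE-17, against 6.29%. The 5 were Potri.006G210600, Potri.007G061981, Potri.010G172700, Potri.011G139700 and Potri.012G126400. Here too the genes were chosen with every WT library below every LBD11-OE library, which favours such counts. The line left out was the highest LBD4-OE line in 31 of 101 genes for LBD4-OE-11, against 43.6%, in 37 of 109 for LBD4-OE-14, against 21.7%, and in 66 of 132 for LBD4-OE-17, against 34.6%.

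DESeq2 called 3 members among the LBD4-OE lines, Potri.001G356200, Potri.013G007700 and Potri.008G161600, with an adjusted p of 0.00387, 0.00889 and 0.0397, named here after their values were seen. The share of all genes that DESeq2 called among these lines is not given here. Potri.001G356200 had 6.31, 6.87 and 7.14 CPM in LBD4-OE-11, 9.37 and 10.7 CPM in LBD4-OE-14 and 10.4, 11.2 and 9.68 CPM in LBD4-OE-17, against 7.61, 7.27, 6.38, 8.03 and 7.53 CPM in WT. Both LBD4-OE-14 libraries and all 3 of LBD4-OE-17 lay above every WT library, and the LBD4-OE-11 libraries, of the smaller set, overlapped WT. In LBD11-OE the same gene had 20.3, 23.2 and 29.8 CPM as lowest, median and highest, with the 3 lines overlapping. Potri.013G007700 had 42.9, 46.0 and 46.3 CPM in LBD4-OE-17, and 30.8 to 34.7 CPM in LBD4-OE-11, against 40.5, 30.2, 33.6, 34.7 and 33.8 CPM in WT. The joint edgeR test gave an adjusted p of 0.0563 for Potri.001G356200, 0.094 for Potri.013G007700 and 0.178 for Potri.008G161600.

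The members were spread over the genome. They lay on all 19 chromosomes, and 2 lay on scaffolds. Chromosomes 5 and 6 held 12 each and chromosome 7 held 9. These were 0.781%, 0.687% and 1.003% of the genes at 1 CPM or more on each, against 0.492% over the genome. The plus strand held 49 of the members, and the share of all genes there was not worked out. The median length of their gene models, as the files give it, was 2871.5 bases, where that of all genes at 1 CPM or more was 3734.5, and the length ran from 371 to 14750 bases. The number of members expected by chance near another was not worked out. Within 200 kb of another member lay 15 of the 112, in 6 pairs and 1 group of 3 on chromosome 7. That group holds Potri.007G105800 (chromosome 7, 12885284 to 12889994, plus strand), Potri.007G108401 (chromosome 7, 13073656 to 13076324, minus strand) and Potri.007G108500 (chromosome 7, 13081389 to 13083829, minus strand). Potri.007G105800 averaged 13.3 ± 3.14 CPM in LBD11-OE, 5.58 ± 1.23 CPM in LBD4-OE and 5.05 ± 1.32 CPM in WT (SD, n = 9, 8 and 5). Potri.007G108401 averaged 6.11 ± 1.92, 2.71 ± 0.442 and 2.47 ± 0.432 CPM, and Potri.007G108500 4.38 ± 1.18, 1.63 ± 0.169 and 1.91 ± 0.262 CPM, in the same order of groups. All 3 were low genes with a rise of 0.99 to 1.32 log2 units, and none passed the joint test among the LBD11-OE lines.

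Another pair, on chromosome 13, joins Potri.013G009800, one of the 10 largest rises, with Potri.013G007700, whose rise was 0.97 log2 units. Potri.013G007700 had 88.6, 104 and 81.6 CPM in LBD11-OE-14, 67.5, 70.5 and 59.1 CPM in LBD11-OE-2 and 46.3, 56.7 and 54.2 CPM in LBD11-OE-1, and was higher in LBD11-OE-14 than in LBD11-OE-1 by 0.84 ± 0.11 (SE, log2), adjusted p 6.74e-05 in edgeR. Whether the strand of reads was used in counting is not given in the sources used here, so members that overlap another gene model can share reads with it. There were 6 such members, 5 with a model on the opposite strand and 1 on the same strand, and the overlapping models averaged at most 1.21 CPM in LBD11-OE.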

How the data were processed

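Poly(A) RNA of 22 stem samples was sequenced as paired ends (Illumina HiSeq), per the labels' protocols. HISAT2, HTSeq, Trimmomatic, Cufflinks and MultiQC appear in the submitters' processing notes; versions, genome build and strand setting are not given in the sources used here. What the authors deposited were raw read counts per gene from HTSeq, 1 file per library with 34699 genes, per the labels. Identifiers carry the suffix 4.1, and coordinates are printed as deposited, their base not being stated. Reads of a hybrid were counted on gene models of a related species, so alleles and near-identical copies can be undercounted.

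From these counts CPM and log2(CPM + 0.5) were computed with plain library totals. Line differences were fitted with edgeR 4.0.16 in R 4.3.3 on all 22 libraries with 7 group means: TMM normalization (factors 0.956 to 1.04), edgeR's expression filter (minimum count 10, total 15), robust quasi-likelihood F tests and Benjamini-Hochberg adjustment over 26271 genes at 0.05. Comparisons of constructs used 3 group means and 25626 genes. The standard error is the log2 fold change divided by the root of its F. DESeq2 1.42.0 and limma 3.58.1 were alternatives. On simulated counts for LBD11-OE-14 against LBD11-OE-1 the procedure recovered 31% of 1.5-fold and 68% of 2-fold changes, with 5 false calls among 104 (26222 genes). Replicates were compared by chi-square over genes. The closest pair, WT replicates 2 and 5, reached 5.78 per degree of freedom, beyond sampling noise, and all were kept apart. The pairs with WT replicate 3 were the furthest apart, at 48.5 to 66.4. Other WT pairs reached at most 24.9 and pairs within a transgenic line at most 33.2. WT replicate 3 was kept, and the highest WT library of a gene had a part in choosing the members. Deviations of same-numbered libraries from their line means correlated at 0.264, 0.181 and 0.134 between LBD11-OE-1 and LBD11-OE-14. LBD11-OE-1 and LBD11-OE-2 gave 0.089, 0.141 and 0.128, and LBD11-OE-2 and LBD11-OE-14 gave -0.04, 0.09 and -0.06. Whether the numbers pair libraries of different lines is not known from the labels. The main fits used no pairing, and the replicate number entered as a block only in an alternative fit. 

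The members, the lists and the tests were chosen with earlier results of these data known. Members were named by rule: the 10 largest rises, the 6 highest mean CPM, the 6 smallest joint p among LBD11-OE lines and the 4 smallest among LBD4-OE lines where past the threshold, the 2 genes on each side of each limit, and groups of 3 or more within 200 kb. Potri.013G007700 and the genes of small counts fall outside it and were named after their values were seen. Lists by product name and promoter motifs were not used here, for want of an annotation and a sequence.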

Additional observations from a re-analysis of the deposited data

Results flagged for a closer look

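In 7 of the 99 groups examined (33 named genes in LBD11-OE, LBD4-OE and WT), 1 library stood further from its group than the spread of the others allows. Chance gives about 1 group in 20, and the count was near that. Some genes were named through an extreme library, as Potri.007G086000 was through its highest WT library. For such genes the chance rate does not hold, and the cases are given as description. Of the 7 groups, 5 concern WT replicate 3. It was the highest WT library for Potri.005G089900, with 2.35 CPM where the others had 1.11 to 1.19, and for Potri.007G086000, with 25.1 CPM where the others had 11.8 to 14.03. It was the lowest for Potri.006G165700, with 198 CPM where the others had 295 to 314, for Potri.004G138200, with 195 CPM where the others had 299.6 to 337, and for Potri.008G020900, with 161 CPM where the others had 232 to 259. Over all members WT replicate 3 was the lowest of the 5 WT libraries in 46 and the highest in 30. The other cases were LBD11-OE-2 replicate 2 for Potri.007G015500, with 10.7 CPM where the other LBD11-OE libraries had 2.83 to 5.53, and LBD4-OE-11 replicate 3 for Potri.007G108401, with 1.70 CPM where the other LBD4-OE libraries had 2.51 to 3.11.

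The members differed in level between LBD11-OE lines. The joint edgeR test of the 3 lines called 43 members, against 1.36% of all genes. LBD11-OE-14 was higher than LBD11-OE-1 in 40, against 1.36%, and higher than LBD11-OE-2 in 33, against 0.483%, each at an adjusted p under 0.05. The values of LBD11-OE-14 had a part in choosing the members. Among the 96 genes chosen without that line the counts were 28 and 24. The count against LBD11-OE-2 was 9 without LBD11-OE-2 replicate 3. The cause of the line difference was not tested.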

How the results depend on the processing

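The number of members was 72 with LBD4-OE held within 0.15 of WT and 74 with a rise of at least 1. The other settings of the rule gave 92 to 148 genes: 121 with TMM-scaled library sizes, 112 with a pseudocount of 1 (105 of them members), 121 and 92 with a WT floor of 0.5 and 2 CPM, 115 with line means, 96 to 145 without a line, and 148 in the 15 libraries of the larger set (99 of them members). Leaving out 1 library gave 104 to 133 members, 26 to 40 calls in the joint test of LBD11-OE lines, 29 to 40 in LBD11-OE-14 against LBD11-OE-1, 9 to 34 in LBD11-OE-14 against LBD11-OE-2, and 0 to 0 both in LBD11-OE-2 against LBD11-OE-1 and among the LBD4-OE lines. DESeq2 called 55 members in the joint test of LBD11-OE lines and limma voom 47, and no filter on low counts or DESeq2 size factors in edgeR left the counts within 1 of those reported. Among the LBD4-OE lines DESeq2 called 3 members, and edgeR called 1, Potri.013G007700 (adjusted p 0.0431), with LBD4-OE-11 replicate 1 and WT replicate 3 both left out, a setting chosen after seeing the data. The shares of all genes called under these settings are not given here, and the cause of these changes was not tested.

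Over 57 pairs of the same number the correlation of deviations from the line means ran from -0.55 to 0.43 (median -0.03, 13 pairs over 0.1). Of 22 libraries 7 matched best with one of their own number, and the number expected by chance was not worked out. With the replicate number as a block, over libraries numbered 1 to 3, the joint test of LBD11-OE lines gave 39 members, LBD11-OE-14 against LBD11-OE-1 38, LBD11-OE-14 against LBD11-OE-2 22, LBD11-OE-2 against LBD11-OE-1 0 and the LBD4-OE lines 0. Among named genes the block ended the call of Potri.001G334800 against LBD11-OE-1 (adjusted p 0.062) and changed no other. The same libraries without the block, a setting added later, gave 40, 40, 24, 0 and 0.

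For the named genes the fold change of LBD11-OE-14 against LBD11-OE-1 stayed on the same side of the threshold in 527 of the alternatives run, lost it in 16 and gained it in 18, and none called in either setting changed sign. Members under 2 CPM in WT rest on as few as 13 counts per WT library and 9 per LBD4-OE library, which limits how closely LBD4-OE and WT can be compared there.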
